A study of Mus musculus with 18 samples.

Results

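The 33 genes described here are sterol and lipid synthesis genes taken by name from a list, and all 33 were found among the 33006 genes of the count matrix. Msmo1 is listed there under its older symbol Sc4mol. They comprise 8 genes of the mevalonate and isoprenoid steps, 12 of the steps from squalene to cholesterol, 5 regulators, 3 sterol transport genes and 5 fatty acid synthesis genes. The list was chosen with earlier results of these data known.

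Cells make cholesterol and isoprenoids from acetyl-CoA through the mevalonate pathway, and fatty acids from the same precursor through a separate branch. The transcription factor encoded by Srebf2 switches on most genes of the sterol branch when sterols in the endoplasmic reticulum are low. Insig proteins hold it back when sterols are plentiful, and oxysterols then switch on efflux pumps such as Abca1 and Abcg1 through the LXR receptors. T cells are known to turn this programme on when they are activated and to need its products for membrane growth and for prenylation of small GTPases.

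The study profiled splenic CD4 T cells of male mice by droplet single-cell RNA-seq, and 26652 cells of 18 samples were analysed. In one experiment, for which the labels name the V2 kit, ΔFoxp3 mice (B6 Foxp3DeltaEGFPiCre x ROSA-YFP) and WT mice (B6 Foxp3-IRES-GFP) were both 3 weeks old, with 2 samples each. In the other, with the V3 kit, 2 samples of ΔFoxp3 mice aged 3 weeks stood beside 2 samples of 9-week-old WT mice (Foxp3-IRES-GFP on B6, crossed to CD45.1), so genotype and age cannot be told apart there. The same run held mixed chimeras, in which CD45.2 recipients irradiated with 1000 rad at 7 weeks of age received marrow that was 50% WT (Foxp3-IRES-GFP, CD45.1) and 50% ΔFoxp3 (Foxp3DeltaEGFPiCre with ROSA-YFP, typed CD45.1/2). The WT and ΔFoxp3 CD4 T cells of 3 chimeras were sorted apart by CD45 type 10 weeks later, so both donor types had developed in the same animal together with WT Treg cells. GFP+ Treg cells and GFP- conventional T cells (Tconv) of 9-week-old WT mice of that same cross completed the run, with 2 samples each. Foxp3 encodes the transcription factor of regulatory T (Treg) cells, and the ΔFoxp3 allele is Foxp3DeltaEGFPiCre. The reporter alleles thus differed between the genotypes in every comparison. The labels give the chimeras an age of 16 weeks and their marrow donors an age of 21 days.

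The samples held 148 to 5271 cells and 955097 to 14887898 UMIs (unique molecular identifiers, each counting 1 captured RNA molecule), with a median of 2774 to 3143 UMIs per cell in the V2 samples and more in the V3 samples. Foxp3 itself was counted by its 3′ end, which need not lie in the altered part of the allele, at 2.11 and 2.34 CPM (UMI counts scaled to the same total in every sample) in the V2 ΔFoxp3 samples and 2.28 and 2.55 in the V2 WT samples. It reached 28.9 and 25.1 CPM in the sorted Treg samples and had no UMI in the sorted Tconv samples. Cre UMIs numbered 12 to 33 in each intact ΔFoxp3 sample, 0 to 3 in each chimera ΔFoxp3 sample and 0 in every WT sample. Both samples of each intact or sorted V3 group carried 1 shared hashtag and came from 2 different droplet tubes, and nothing in the labels says that they were separate mice. The V3 p-values below come from 1 fit to the V3 samples, chimeras included. Their spread then mixes that between those samples, which may be technical, with that between chimeras. The 2 droplet tubes of the V3 run shared 9 cell barcodes, and 90 barcodes occurred in more than 1 V2 sample. Of the chimera samples, ΔFoxp3 1 and 3 and WT 2 came from 1 tube. ΔFoxp3 2 and WT 1 and 3 came from the other, so the 2 cell types of each chimera lay in different tubes. The T cell genes Cd3d, Cd3e, Cd3g and Cd4 were counted in every sample.

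Promoter sequence of the genes on which the genotype results turn is given first, because the regulators of this pathway are known to act there. Each run is the 250 bases before the gene's RefSeq start site (build GRCm38.p6), read 5′ to 3′ on the gene's own strand, with capitals marking the sterol response element TCACNCCAC and the NF-Y box CCAAT on either strand. Hmgcs1, Idi1, Cyp51 and Srebf2 fell in ΔFoxp3 cells of both experiments, Msmo1 fell in resting cells of both, and Abca1 rose in one.
Hmgcs1, chr13:119690101-119690350, plus strand: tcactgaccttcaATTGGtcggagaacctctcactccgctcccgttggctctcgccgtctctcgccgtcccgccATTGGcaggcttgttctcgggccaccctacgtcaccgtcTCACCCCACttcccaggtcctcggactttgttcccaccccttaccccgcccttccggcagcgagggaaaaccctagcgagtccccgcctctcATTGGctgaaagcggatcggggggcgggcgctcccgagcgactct
Idi1, chr13:8885356-8885605, plus strand: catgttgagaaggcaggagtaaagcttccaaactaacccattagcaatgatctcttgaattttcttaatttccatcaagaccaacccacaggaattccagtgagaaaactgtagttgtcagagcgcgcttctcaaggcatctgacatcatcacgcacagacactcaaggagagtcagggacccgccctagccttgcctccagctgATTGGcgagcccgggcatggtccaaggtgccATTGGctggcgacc
Cyp51, chr5:4104698-4104947, minus strand: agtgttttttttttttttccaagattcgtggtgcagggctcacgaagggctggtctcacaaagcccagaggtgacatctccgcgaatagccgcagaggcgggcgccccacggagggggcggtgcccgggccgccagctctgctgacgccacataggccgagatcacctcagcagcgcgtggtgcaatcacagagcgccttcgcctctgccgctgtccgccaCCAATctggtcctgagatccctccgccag
Msmo1, chr8:64733579-64733828, minus strand: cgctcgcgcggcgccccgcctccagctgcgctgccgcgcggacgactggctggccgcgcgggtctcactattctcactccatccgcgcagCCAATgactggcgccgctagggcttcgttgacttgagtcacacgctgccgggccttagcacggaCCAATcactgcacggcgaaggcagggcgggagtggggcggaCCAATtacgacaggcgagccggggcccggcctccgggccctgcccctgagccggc
Srebf2, chr15:82147019-82147268, plus strand: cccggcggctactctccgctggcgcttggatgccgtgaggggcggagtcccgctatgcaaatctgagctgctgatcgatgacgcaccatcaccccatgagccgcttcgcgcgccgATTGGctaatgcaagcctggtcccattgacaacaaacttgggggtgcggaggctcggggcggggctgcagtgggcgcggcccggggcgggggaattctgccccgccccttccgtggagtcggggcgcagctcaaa
Abca1, chr4:53159896-53160145, minus strand: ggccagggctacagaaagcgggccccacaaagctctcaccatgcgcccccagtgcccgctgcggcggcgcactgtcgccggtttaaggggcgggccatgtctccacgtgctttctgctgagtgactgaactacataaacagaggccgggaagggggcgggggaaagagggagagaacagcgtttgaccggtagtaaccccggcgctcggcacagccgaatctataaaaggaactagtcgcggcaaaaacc
A promoter was found for 27 of the 33 genes. The NF-Y box stood in 21 of these 27, against 37.49% of the 27025 genes with a promoter. The exact 9-letter sterol element stood in 1 of 27, Hmgcs1, as TCACCCCAC with its first base 137 bases before the start site, against 1.225% of all genes. An exact match to 2 AGGTCA copies 4 bases apart, the form searched for the LXR element, stood in 0 of 27 and in 4 of all genes. The search allowed no departure from these letters, so it cannot show that Abca1 or any other gene lacks an LXR element. These are letter matches in a short window and say nothing of binding.

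Intact ΔFoxp3 mice and WT mice of the same age were compared in the V2 experiment, which asks how T cells differ in mice that lack functional Treg cells. Counts were summed over all cells of a sample and tested with edgeR's quasi-likelihood test over all genes. Of the 33 genes, 2 rose and 4 fell at an adjusted p under 0.05, where 14.4% of the 10675 genes tested rose and 9.61% fell (24% called in either direction). The median log2 difference was -0.10 over the 33 genes and -0.01 over all genes tested.

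The 4 genes that fell were spread over 3 roles. Hmgcs1, the synthase that makes HMG-CoA at the entry of the pathway, stood at 29.8 and 30.7 CPM in the WT samples and at 22.1 and 21.6 CPM in the ΔFoxp3 samples. The groups did not overlap, and the fitted log2 difference was -0.52 ± 0.10 (SE; edgeR adjusted p = 0.0159). Idi1, the isopentenyl diphosphate isomerase, stood at 22.8 and 20.9 CPM in WT and 14.3 and 8.44 CPM in ΔFoxp3 cells. Its fitted log2 difference was -0.91 ± 0.21 (edgeR adjusted p = 0.0281), and the ΔFoxp3 samples lay below both WT samples while differing from each other. The log2 difference was -1.46 without ΔFoxp3 replicate A and -0.66 without ΔFoxp3 replicate B.

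Cyp51, the lanosterol demethylase, stood at 23.0 and 24.3 CPM in WT and 14.9 and 12.7 CPM in ΔFoxp3 samples, with no overlap. Its log2 difference of -0.80 ± 0.13 had the lowest p of the 33 genes in this comparison (edgeR adjusted p = 0.00936). Srebf2, the master regulator of the sterol branch, stood at 32.2 and 29.9 CPM in WT and 20.4 and 22.3 CPM in ΔFoxp3 samples. It was lower in both ΔFoxp3 samples than in either WT sample, by a log2 difference of -0.61 ± 0.10 (edgeR adjusted p = 0.0106).

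Pmvk and Ebp rose. Pmvk, the phosphomevalonate kinase, stood at 12.7 and 12 CPM in WT and 20.1 and 28.1 CPM in ΔFoxp3 samples (log2 difference 0.86 ± 0.17, edgeR adjusted p = 0.0158). Ebp, the sterol isomerase of a late step, stood at 65.3 and 68.3 CPM in WT and 84.6 and 86.2 CPM in ΔFoxp3 samples (log2 difference 0.30 ± 0.08, edgeR adjusted p = 0.0352). Both groups were separate for both genes. Msmo1 (log2 difference -0.57, edgeR adjusted p = 0.0559) and the fatty acid elongase Elovl6 (-0.65, edgeR adjusted p = 0.0537) missed the threshold. Msmo1 passed with no filter on low counts (edgeR adjusted p = 4.24e-05), with the replicate block (0.0218 by the same test) and without ΔFoxp3 replicate A or B, at log2 differences of -0.95 and -0.36. No transport or fatty acid gene passed in edgeR's test, with 0 of 3 and 2 of 5 at an unadjusted p under 0.05. Abcg1 and Acly, the genes of those roles with most counts, had log2 differences of 0.24 and -0.14. With no filter on low counts Fasn (edgeR adjusted p = 0.0449) and Elovl6 (0.0188) passed, and Elovl6 also passed without the dividing clusters (0.0494). Elovl6 passed without ΔFoxp3 replicate A (edgeR adjusted p = 0.0414) together with Abcg1 (0.000348), and without ΔFoxp3 replicate B (0.041) together with Fasn (0.018). DESeq2 called 4 of the 33 genes, without Hmgcs1 (adjusted p = 0.0702) and Ebp (0.166 by the same test).

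These V2 calls rest on few samples. With WT replicate A or WT replicate B left out, 0 of the 33 genes passed (adjusted p of the 4 falls between 0.0733 and 0.169), while leaving out either ΔFoxp3 replicate gave 10; the fitted differences kept their sign in each case.

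The V3 experiment compared ΔFoxp3 mice aged 3 weeks with WT mice aged 9 weeks, and here 5 of the 33 genes rose and 13 fell, where 22.1% of 10918 genes rose and 20.9% fell (43% in either direction). The share of the 33 genes that fell was larger than the background share, and the share that rose was smaller. The median log2 difference was -0.27 over the 33 genes against -0.0050 over all genes tested. All 4 genes that fell in the V2 experiment were among the 13 (30.8% of them), and none of the 2 that rose there was among the 5. The 2 experiments share no samples. This overlap was not counted over all genes, so it cannot be read as particular to these 33.

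**Figure D1:**
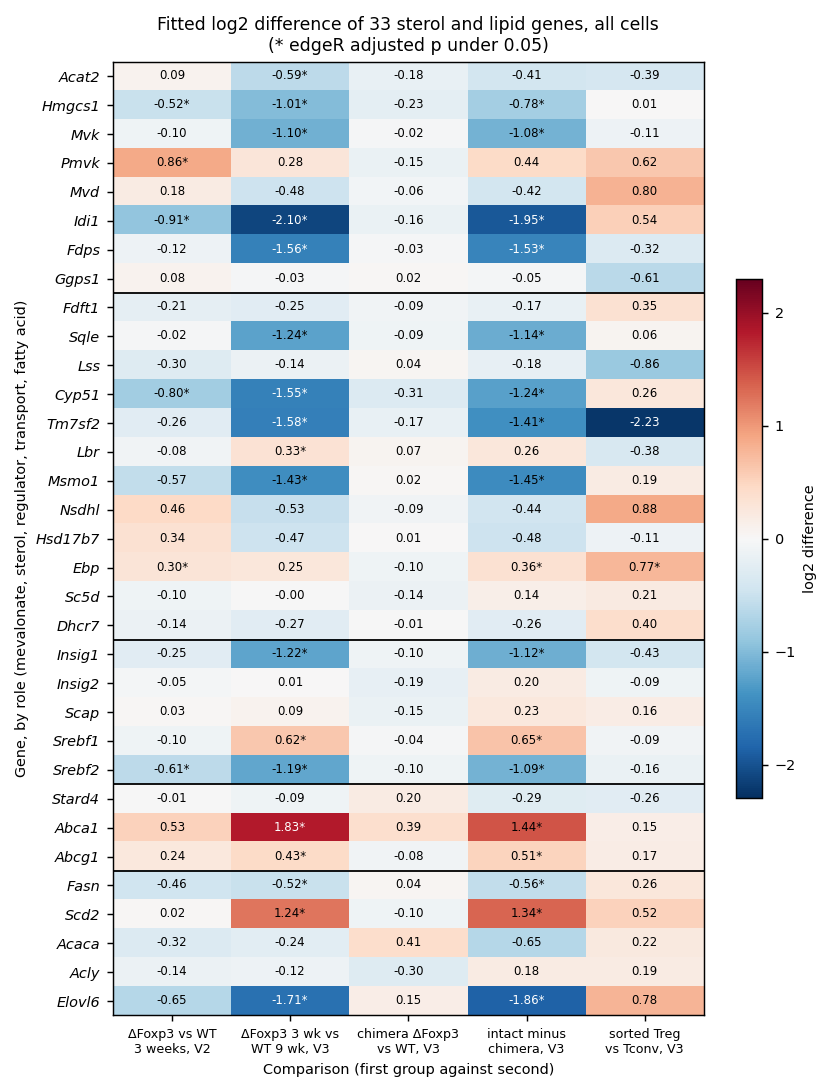
Fitted log2 difference (colour and number) of the 33 genes, in rows by role, for 5 comparisons in columns; an asterisk marks an edgeR adjusted p under 0.05. Blue cells gather in the mevalonate and sterol rows of the V3 and the intact-minus-chimera columns, V3 Idi1 at -2.10 among them, while the chimera column runs from -0.31 to 0.41 and has no asterisk.

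Of the 8 mevalonate and isoprenoid genes, 5 fell and none rose in the V3 experiment (Hmgcs1, Idi1, Fdps, Mvk and Acat2). Fdps, the farnesyl diphosphate synthase from which sterols and prenyl groups branch, stood at 54.3 and 53.3 CPM in WT and 21.3 and 21.5 CPM in ΔFoxp3 samples. The groups lay far apart next to the spread within each, with a log2 difference of -1.56 ± 0.14 and the lowest p of the 33 genes (edgeR adjusted p = 5.43e-07). Idi1 stood at 29.6 and 28.3 CPM in WT and 6.4 and 9.11 CPM in ΔFoxp3 samples. Its log2 difference of -2.10 ± 0.22 was the largest fall among the 33 genes (edgeR adjusted p = 2.39e-06).

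Hmgcs1 stood at 33 and 30.8 CPM in WT and 18.5 and 18.9 CPM in ΔFoxp3 samples (log2 difference -1.01 ± 0.15, edgeR adjusted p = 8.36e-05). Mvk, the mevalonate kinase, stood at 14.2 and 10.8 CPM in WT and 8.34 and 5.83 CPM in ΔFoxp3 samples (-1.10 ± 0.26, edgeR adjusted p = 0.00322). The ΔFoxp3 samples were below the WT samples for both genes. The sum over the 8 genes was 186 ± 11.2 CPM (SD, n = 2) in WT and 119 ± 1.86 CPM (SD, n = 2) in ΔFoxp3 samples, whereas in the V2 experiment it was 194 ± 1.31 and 189 ± 19.0 CPM. Acat2, an acetyl-CoA acetyltransferase, fell by 0.59 on the log2 scale (edgeR adjusted p = 0.0307). Its call was lost without ΔFoxp3 replicate 1 (edgeR adjusted p = 0.139) and without WT replicate 1 (0.322 by the same test), and that of Mvk was lost without WT replicate 1 (0.132). Mvd, Pmvk and Ggps1 did not pass, with log2 differences of -0.48, 0.28 and -0.03.

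Of the 12 sterol genes, 4 fell (Sqle, Cyp51, Msmo1 and Tm7sf2) and 1 rose (Lbr). Msmo1, the methylsterol monooxygenase, stood at 43.1 and 45.8 CPM in WT and 20.3 and 18.2 CPM in ΔFoxp3 samples (log2 difference -1.43 ± 0.14, edgeR adjusted p = 1.86e-06). Cyp51 stood at 26.6 and 30.4 CPM in WT and 12.8 and 9.85 CPM in ΔFoxp3 samples (-1.55 ± 0.18, edgeR adjusted p = 9.71e-06). Both groups were separate for both genes, and each fell more in this experiment than in the V2 one, where the ages were matched; that contrast between experiments was not tested.

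Sqle, the squalene epoxidase, stood at 15.4 and 17.1 CPM in WT and 6.95 and 8.79 CPM in ΔFoxp3 samples (-1.24 ± 0.18, edgeR adjusted p = 5.29e-05). It did not differ by the test in the V2 experiment, where the samples ranged from 11.4 to 13.8 CPM in both groups (95% interval of the log2 difference -0.42 to 0.37). Tm7sf2, a sterol reductase, stood at 4.12 and 4.58 CPM in WT and 1.25 and 2.01 CPM in ΔFoxp3 samples (-1.58 ± 0.39, edgeR adjusted p = 0.00423).

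Lbr encodes a protein of the inner nuclear membrane that also carries sterol reductase activity. It stood at 118 and 117 CPM in WT and 162 and 184 CPM in ΔFoxp3 samples (log2 difference 0.33 ± 0.09, edgeR adjusted p = 0.00979). Without the dividing cell clusters the difference was 0.13 (edgeR adjusted p = 0.21) and without ΔFoxp3 replicate 2 it was 0.25 (edgeR adjusted p = 0.0869). Ebp (0.25, edgeR adjusted p = 0.0508) and Nsdhl (-0.53, edgeR adjusted p = 0.065) lay just outside the threshold. In the intact and sorted V3 groups the replicate number is the droplet tube, and both genes passed with the number as a block (edgeR adjusted p = 0.0296 for Ebp and 0.02 for Nsdhl) and with the tube as a covariate (0.0358 and 0.0367 by the same test). The last steps, Sc5d and Dhcr7, had log2 differences of -0.0045 and -0.27 and did not pass. Fdft1, Lss and Hsd17b7 did not pass either, at -0.25, -0.14 and -0.47.

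Among the regulators, Srebf2 fell, from 41.9 and 47.9 CPM in WT to 21.7 and 23.6 CPM in ΔFoxp3 samples (log2 difference -1.19 ± 0.14, edgeR adjusted p = 7.09e-06). Insig1, which retains the SREBP complex and is itself a target of it, stood at 20.8 and 17.5 CPM in WT and 11.5 and 8.26 CPM in ΔFoxp3 samples (-1.22 ± 0.18, edgeR adjusted p = 7.62e-05). Srebf1, which drives fatty acid synthesis and is an LXR target, went the other way, from 14.4 and 17.5 CPM to 26.7 and 29.3 CPM (0.62 ± 0.17, edgeR adjusted p = 0.0099). The groups were separate for all 3 genes. The Srebf1 call was lost without ΔFoxp3 replicate 2 (edgeR adjusted p = 0.0529) and without WT replicate 1 (0.161 by the same test). Scap and Insig2 had log2 differences of 0.09 and 0.01 and did not pass.

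Both efflux pumps rose. Abca1 stood at 5.04 and 1.67 CPM in WT and 19.3 and 12.2 CPM in ΔFoxp3 samples, a log2 difference of 1.83 ± 0.39 (edgeR adjusted p = 0.00142). The size of that rise depends on the WT samples: it was 3.02 without WT replicate 1 and 1.40 without WT replicate 2, and in resting cells 4.61 and 1.27. Abcg1 stood at 44.0 and 40.4 CPM in WT and 70.8 and 63.6 CPM in ΔFoxp3 samples, a log2 difference of 0.43 ± 0.11 (edgeR adjusted p = 0.0057). Both ΔFoxp3 samples exceeded both WT samples for each gene, and the sterol carrier Stard4 had a log2 difference of -0.09.

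The 5 fatty acid genes split. Scd2, a stearoyl-CoA desaturase, rose from 20.8 and 29.6 CPM in WT to 64.0 and 70.0 CPM in ΔFoxp3 samples (log2 difference 1.24 ± 0.15, edgeR adjusted p = 1.43e-05). Elovl6 fell from 7.10 and 8.74 CPM to 2.64 and 2.86 CPM (-1.71 ± 0.28, edgeR adjusted p = 0.000211). Fasn, the fatty acid synthase, fell from 20.2 and 17.9 CPM to 17.7 and 14 CPM (-0.52 ± 0.16, edgeR adjusted p = 0.0161). Its call was lost without WT replicate 1 (edgeR adjusted p = 0.246), without ΔFoxp3 replicate 2 (edgeR adjusted p = 0.164) and with sample totals in place of the TMM scaling (edgeR adjusted p = 0.164). Acly and Acaca, which make and carboxylate acetyl-CoA, had log2 differences of -0.12 and -0.24.

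**Figure D2:**
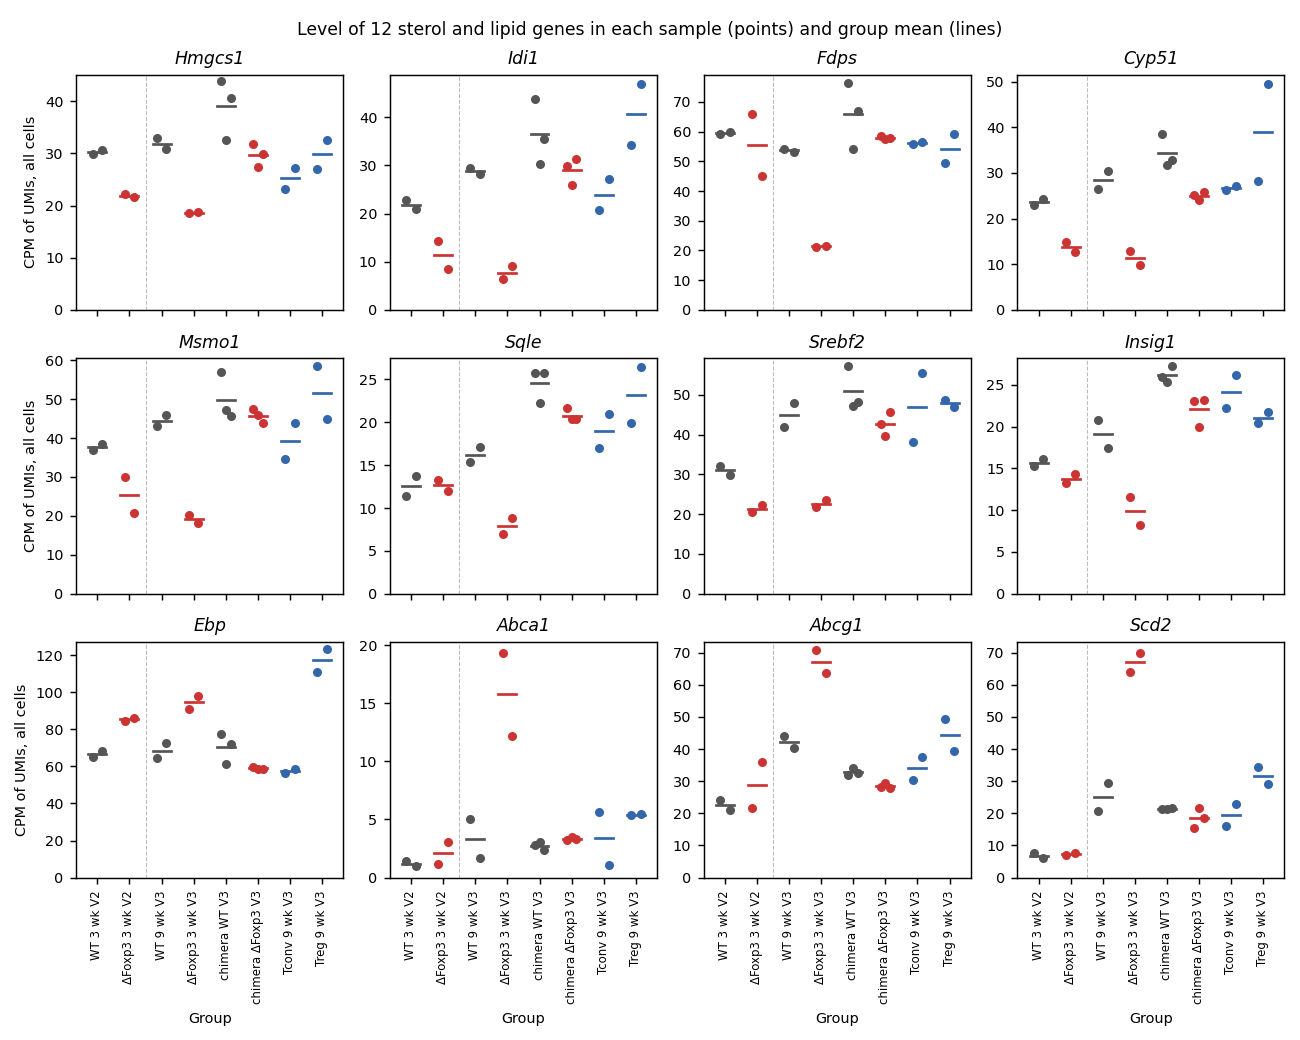
CPM of UMIs over all cells (y axis from 0) for 12 of the genes in each of the 18 samples, with 1 point per sample and a line at each group mean; the dashed line parts V2 from V3 samples. The V3 ΔFoxp3 samples sit lowest for Fdps (21.3 and 21.5 CPM) and highest for Scd2 (64.0 and 70.0 CPM).

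Other measures differed between the same samples. The dividing-cell list rose in 14 of its 15 genes in the V3 comparison and 11 of 15 in the V2 comparison, with a summed level of 678 to 894 CPM in V3 WT and 1723 to 3225 CPM in V3 ΔFoxp3 samples. The 11 tested mitochondrially encoded genes all fell in the V3 comparison (7 of 11 in V2), from a sum of 69386 to 69608 CPM to a sum of 46856 to 47431 CPM. Of the 9 tested myeloid markers 5 rose in V3, from a sum of 86.4 to 107 CPM to a sum of 207 to 225 CPM, most of it Cst3, while Cd14 had no UMI in 14 of the 18 samples. Of the 7 tested B cell markers 4 rose and 2 fell, with sums of 226 to 255 CPM in WT and 131 to 150 CPM in ΔFoxp3 samples, and Ms4a1 did not exceed 2.04 CPM in any sample. Activated Tconv cells made up 14.6% and 19.9% of the V3 WT samples and 46.0% and 47.4% of the V3 ΔFoxp3 samples. Summed counts do not tell fewer cells of a type from less RNA per cell. Without cells holding 5 or more UMIs of other cell types, 6 genes rose and 12 fell, and without the dividing clusters 4 rose and 13 fell. A stricter removal of cells with 2 or more such UMIs, 51.1% to 75.5% of the cells of these 4 samples, left 4 rising and 8 falling. Neither cut need pick out cells of other types, because its genes include Cst3, Xbp1, Ighm and Cd74, each counted in every sample. The cut at 5 UMIs removed 21.3% and 33.8% of V3 ΔFoxp3 cells (medians of 6735 and 8856.5 UMIs per cell). It removed 7.0% and 16.2% of V3 WT cells (medians of 5181.5 and 6489). With sample totals in place of TMM, which moves the median of all genes by 0.22, 7 rose and 11 fell.

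Genotype was compared within the cell classes of the authors' deposited annotation to see whether the difference was there among cells of 1 class. In resting Tconv cells of the V3 experiment 3 of 33 genes rose (Abca1, Abcg1 and Scd2) and 12 fell, where 22.2% of 10182 genes rose and 19.2% fell (41.5% in all). All 12 were among the 13 that fell over all cells, Fasn being the exception. Idi1 stood at 28.4 and 30.1 CPM in resting WT cells and 6.34 and 6.94 CPM in resting ΔFoxp3 cells (log2 difference -2.41 ± 0.21, edgeR adjusted p = 2.94e-09). Fdps stood at 50.3 and 56.9 CPM against 22.9 and 25.5 CPM in the same cells (-1.40 ± 0.16, edgeR adjusted p = 1.18e-07). The 2 groups were separate for both genes. Scd2 rose in these cells from 15.6 and 21.0 CPM to 58.9 and 72.9 CPM (1.62 ± 0.18, edgeR adjusted p = 1.63e-07). Within this class too the dividing-cell list rose in 14 of 15 genes (10 of 15 in V2), and its part in the result was not tested. Acat2 (-0.63) was no longer called without ΔFoxp3 replicate 1, WT replicate 1 or WT replicate 2 (edgeR adjusted p between 0.0729 and 0.18), nor was Mvk (-1.07) without WT replicate 1 (edgeR adjusted p = 0.0721).

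In the resting Tconv cells of the age-matched V2 experiment, 32 of the 33 genes were tested, of which none rose and 5 fell, where 12% of 10071 genes rose and 7.63% fell (19.6% in all). The 5 were Hmgcs1, Idi1, Cyp51, Msmo1 and Srebf2, and all 5 were among the 12 of the V3 experiment (41.7% of them). Here too the overlap was not counted over all genes. Hmgcs1 stood at 31.3 and 31.2 CPM in WT and 21.7 and 22.8 CPM in ΔFoxp3 resting cells (log2 difference -0.51 ± 0.10, edgeR adjusted p = 0.0105). Cyp51 stood at 24.5 and 25.5 CPM against 15.8 and 15.3 CPM (-0.68 ± 0.12, edgeR adjusted p = 0.00656). Msmo1, which had missed the threshold over all cells, stood at 39.2 and 40.3 CPM against 30.7 and 20.2 CPM (-0.54 ± 0.15, edgeR adjusted p = 0.0361; -1.0 without ΔFoxp3 replicate A and -0.38 without ΔFoxp3 replicate B). The groups were separate for all 3 genes. Each of the 5 falls kept its sign but lost its call without WT replicate A and without WT replicate B. Without ΔFoxp3 replicate B, Acat2, Fdps and Nsdhl were higher in ΔFoxp3 resting cells, at log2 differences of 0.41, 0.30 and 0.84. Without ΔFoxp3 replicate A the differences of Hmgcs1 and Srebf2 were -0.48 and -0.26, and neither kept its call. Over all cells Fdps was at -0.47 without that replicate.

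In activated Tconv cells of the V3 experiment 1 of 31 tested genes rose (Abca1) and 5 fell (Hmgcs1, Fdps, Cyp51, Msmo1 and Srebf2), where 5.31% of 8744 genes rose and 4.7% fell (10% in all). With no filter on low counts Idi1 (-1.38, edgeR adjusted p = 0.00392), Srebf1 (1.30, 0.0109) and Abcg1 (0.83, 0.022) passed too. Idi1 also passed with the replicate block (edgeR adjusted p = 0.0192). Srebf1 and Scd2 passed with the tube as a covariate (edgeR adjusted p = 0.0384 and 0.0481). Srebf2 stood at 47.9 and 66.2 CPM in activated WT cells and 19.1 and 23.9 CPM in activated ΔFoxp3 cells (log2 difference -1.34 ± 0.30, edgeR adjusted p = 0.0108). Msmo1 stood at 37.1 and 38.4 CPM against 17.7 and 16.8 CPM (-1.11 ± 0.24, edgeR adjusted p = 0.00945). The groups were separate for both genes. These WT samples held 119 and 70 activated cells, and the count fell to 0 without WT replicate 1 or WT replicate 2, to 2 without ΔFoxp3 replicate 1 and to 1 without ΔFoxp3 replicate 2.

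In activated Tconv cells of the V2 experiment 1 of 28 tested genes rose (Pmvk) and 1 fell (Srebf2), where 9.16% and 6% of 8170 genes did (15.2% in all). Pmvk stood at 12 and 10.5 CPM in WT and 25.7 and 38.0 CPM in ΔFoxp3 activated cells (log2 difference 1.46 ± 0.28, edgeR adjusted p = 0.00676). Srebf2 stood at 34.2 and 34.2 CPM against 17.3 and 21.4 CPM (-0.84 ± 0.21, edgeR adjusted p = 0.0245). Both groups were separate for both genes. The Srebf2 call was lost without WT replicate A (edgeR adjusted p = 0.0925), without WT replicate B (0.0976 by the same test) and without ΔFoxp3 replicate A (0.0808).

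The annotation also gives a Treg class, which in ΔFoxp3 mice holds Treg-like cells. In the V3 experiment 4 of 23 tested genes fell in this class and none rose, where 3.49% of 6136 genes fell and 3.6% rose (7.09% in all). Idi1 stood at 44.6 and 34.1 CPM in WT and 2.34 and 6.81 CPM in ΔFoxp3 samples (log2 difference -3.04 ± 0.63, edgeR adjusted p = 0.00184). Fdps stood at 119 and 68.2 CPM against 25.7 and 20.4 CPM (-2.14 ± 0.43, edgeR adjusted p = 0.00109). Cyp51 and Insig1 fell by 2.46 and 2.36 on the log2 scale. This class held 175899 to 587209 UMIs over all genes in these samples, so the Idi1 levels rest on few UMIs. The samples held 29 to 66 such cells, and without WT replicate 1 no gene of the 4 passed (edgeR adjusted p between 0.0699 and 0.221). Cyp51 and Insig1 also missed the threshold without ΔFoxp3 replicate 2 (0.266 and 0.179) or WT replicate 2 (0.0846 and 0.154). In the V2 experiment Pmvk rose (1.69 ± 0.42, edgeR adjusted p = 0.00684) and Idi1 fell (-1.81 ± 0.51, edgeR adjusted p = 0.017), 2 of 18 tested genes where 8.54% of 5492 genes rose and 7.79% fell (16.3% in all). Neither passed without WT replicate A, and leaving out ΔFoxp3 replicate A gave 4 calls.

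**Figure D3:**
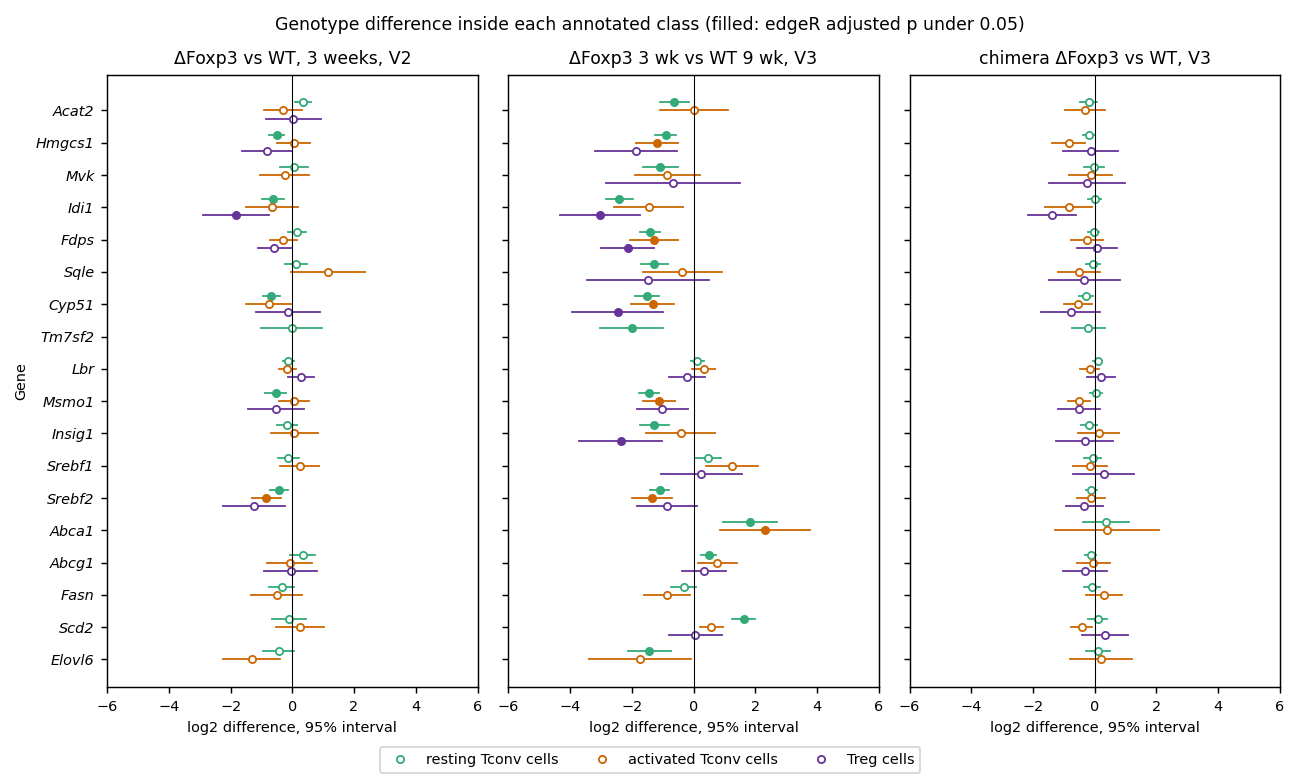
Fitted log2 difference (x axis) with its 95% interval for the 18 genes called over all cells in the V3 experiment, in resting Tconv (green), activated Tconv (orange) and Treg cells (purple), for 3 comparisons; filled points have an edgeR adjusted p under 0.05. Resting cells of the middle panel carry most filled points, with Idi1 at -2.41, and the chimera panel has none.

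The mixed chimeras put ΔFoxp3 and WT cells in the same animals, which asks whether the gene differences of the intact mutants also mark mutant cells that live beside WT Treg cells. By edgeR's test 0 of the 33 genes were called, where 0.458% of 10918 genes were (0.211% higher and 0.247% lower). DESeq2 also called 0, and 4 of the 33 had an unadjusted p under 0.05. The fitted log2 differences of the 33 genes ran from -0.31 to 0.41, with 95% intervals reaching from -0.70 to 1.10, and their median was -0.09 against -0.0006 over all genes. The 13 genes that fell in the intact V3 mice ran from -0.31 to 0.15 here, and 10 of them were below 0.

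Fdps stood at 76.5, 54.2 and 66.8 CPM in the WT cells of the 3 chimeras and at 58.6, 57.5 and 57.9 CPM in their ΔFoxp3 cells. The groups overlapped, ΔFoxp3 cells were lower in 2 of the 3 animals, and the log2 difference was -0.03 (95% interval -0.23 to 0.17). Idi1 stood at 43.9, 30.2 and 35.5 CPM in WT cells and 30.0, 25.8 and 31.4 CPM in ΔFoxp3 cells, again with overlap between the groups but lower in ΔFoxp3 cells within each of the 3 animals, and its log2 difference was -0.16 (95% interval -0.44 to 0.12).

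Cyp51 stood at 38.5, 31.8 and 32.9 CPM in WT and 25.2, 24.2 and 25.8 CPM in ΔFoxp3 cells. These CPM did not overlap, but the TMM scaling of the fit, against which sample totals shift the median of all genes by -0.13 on the log2 scale, left a difference of -0.31 ± 0.12 (edgeR adjusted p = 0.344). Hmgcs1 stood at 43.9, 32.5 and 40.7 CPM in WT and 31.7, 27.3 and 30.0 CPM in ΔFoxp3 cells, without overlap in CPM (-0.23 ± 0.10, edgeR adjusted p = 0.468). Srebf2 stood at 57.3, 47.3 and 48.2 CPM against 42.6, 39.7 and 45.7 CPM (log2 difference -0.10).

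Acly, the ATP citrate lyase that supplies cytosolic acetyl-CoA, came nearest to a call. It stood at 65.8, 66.4 and 58.5 CPM in WT and 49.8, 46.0 and 45.8 CPM in ΔFoxp3 cells of chimeras 1, 2 and 3, lower in ΔFoxp3 cells in all 3 animals. The log2 difference was -0.30 ± 0.08 (edgeR adjusted p = 0.129), and with the mouse as a replicate block, which the design supports because both samples of a number come from 1 chimera, it was -0.30 ± 0.07 (edgeR adjusted p = 0.0425). Both samples of a pair also came from different droplet tubes, so the paired difference holds a tube difference too. Acly also passed with sample totals (-0.43, edgeR adjusted p = 0.017) and with no filter on low counts (-0.29, edgeR adjusted p = 0.0448). Acly was not called over all cells with the tube as a covariate.

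Within the chimera classes 0 of 31 genes in activated Tconv cells, 0 of 33 in resting Tconv cells and 0 of 23 in Treg cells were called by edgeR, with 6, 3 and 1 at an unadjusted p under 0.05 and 0.137%, 1.28% and 0.359% of all genes called (0.0572%, 0.864% and 0.179% higher, and 0.0801%, 0.412% and 0.179% lower). Hmgcs1 in activated cells stood at 55.1, 28.1 and 47.5 CPM in WT and 23.5, 21.3 and 20.9 CPM in ΔFoxp3 samples, without overlap in CPM. All 6 genes at an unadjusted p under 0.05 in activated cells were lower in ΔFoxp3 cells. With no filter on low counts and all 6 samples, Hmgcs1 (-0.84, edgeR adjusted p = 0.0156) and Idi1 (-0.85, edgeR adjusted p = 0.0395) passed. Without WT replicate 2 the Hmgcs1 log2 difference was -1.11 (edgeR adjusted p = 0.0198) and that of Idi1 was -1.23 (edgeR adjusted p = 0.0398). Without both samples of chimera 2, Hmgcs1 alone passed (-1.09, edgeR adjusted p = 0.0253). The remaining ΔFoxp3 samples then all came from 1 droplet tube and the WT samples from the other, so genotype and tube cannot be told apart there. Without WT replicate 2, the remaining WT samples likewise came from 1 tube. Idi1 in the Treg class stood at 55.6, 50.3 and 39.9 CPM in WT and 23.4, 12.9 and 16.9 CPM in ΔFoxp3 samples, separate in CPM, with a log2 difference of -1.37 ± 0.38 (edgeR adjusted p = 0.164). In resting cells Acly passed with the mouse as a replicate block (-0.32 ± 0.08, edgeR adjusted p = 0.0191) and with the tube as a covariate (-0.37, edgeR adjusted p = 0.0258).

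The difference between the intact and the chimera genotype effects was tested directly within the V3 run. It uses the samples of both comparisons above and so is not independent of them, and the age gap of the intact mice is part of it. It was called for 17 of the 33 genes, 5 upward and 12 downward, where 18.7% and 18.1% of 10918 genes were (36.8% in all). The 12 were Fdps, Msmo1, Idi1, Srebf2, Cyp51, Elovl6, Sqle, Insig1, Hmgcs1, Mvk, Tm7sf2 and Fasn. Fdps differed by -1.53 ± 0.16 on the log2 scale (edgeR adjusted p = 6.33e-06), and Idi1 by -1.95 ± 0.25 (edgeR adjusted p = 3.32e-05). Scd2, Abcg1, Srebf1, Ebp and Abca1 differed upward, Scd2 by 1.34 ± 0.20 (edgeR adjusted p = 0.000108). With sample totals, which move the median of all genes by 0.36, the split was 10 upward and 8 downward, and Hmgcs1, Mvk, Tm7sf2 and Fasn were no longer called. Without WT replicate 1 of the intact mice the count was 11.

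The GFP+ and GFP- sorts of the 9-week mice set Treg beside Tconv cells, both WT. Of the 33 genes 1 rose, Ebp, and 0 fell, where 6.16% and 6.01% of 10918 genes did (12.2% in all). At an unadjusted p under 0.05, 5 of the 33 were higher and 3 lower in Treg cells, and DESeq2 called Ebp alone. Ebp stood at 56.3 and 58.6 CPM in Tconv and 111 and 124 CPM in Treg samples, groups that lay well apart (log2 difference 0.77 ± 0.13, edgeR adjusted p = 0.001). Lbr stood at 111 and 120 CPM in Tconv and 89.8 and 123 CPM in Treg samples, with overlap (-0.38 ± 0.12, edgeR adjusted p = 0.0545). Tm7sf2 stood at 3.62 and 4.19 CPM in Tconv and 0.602 and 1.36 CPM in Treg samples (-2.23 ± 0.73, edgeR adjusted p = 0.0603). Lbr passed with no filter on low counts (edgeR adjusted p = 0.034), with the replicate block (0.0373 by the same test) and with the tube as a covariate (0.0407). It also passed without the dividing clusters (-0.58, edgeR adjusted p = 0.00136), without cells of 5 or more other-type UMIs (-0.60, edgeR adjusted p = 0.00314) and without Treg replicate 2 (-0.56, edgeR adjusted p = 0.0178). Nsdhl passed without Tconv replicate 2 (1.47, edgeR adjusted p = 0.0203). With sample totals, which move the median of all genes by 0.26, 6 genes rose and 0 fell: Ebp, Pmvk, Mvd, Nsdhl, Acly and Elovl6. Fdps, Srebf2, Abcg1 and Acly, from the roles without a call, had log2 differences of -0.32, -0.16, 0.17 and 0.19. Fewer cells stood behind these samples, 148 to 362 each. Without cells holding 2 or more UMIs of other cell types, 50.6% to 85.7% of these samples, Ebp did not pass (0.46, edgeR adjusted p = 0.465).

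Levels across the deposited clusters are a description, since the clusters were made from the same cells. The summed level of the 20 mevalonate and sterol genes was 1010 and 1114 CPM in the tissue-like Treg cluster of the sorted samples, where only 1 sample of another cluster reached that range. In the tissue-like Tconv cluster it was 738 to 1022 CPM in chimera WT cells, 706 and 847 CPM in 9-week WT cells, 585 to 669 CPM in chimera ΔFoxp3 cells and 515 and 528 CPM in intact V3 ΔFoxp3 cells. In the V2 samples of that cluster the groups overlapped, at 585 and 670 CPM in WT and 541 and 591 CPM in ΔFoxp3 cells. In other V2 clusters the ΔFoxp3 samples were the higher ones, at 728 and 780 CPM against 575 and 608 CPM in the resting Treg cluster. In dividing Tconv cells they stood at 713 and 796 CPM against 564 and 624 CPM. The natural killer T cluster had 489 and 538 CPM against 407 and 455 CPM, and the resting Irf7 cluster 466 and 491 CPM against 450 and 452 CPM. Both V2 ΔFoxp3 samples were lower than both WT samples in the resting TCRhi, follicular helper, Th1 and activated Treg clusters. Chimera WT samples also lay above chimera ΔFoxp3 samples in the main resting Tconv cluster (573 to 648 against 554 to 566 CPM). The same held in the Tconv_activated_2 cluster (627 to 781 against 487 to 557 CPM). These sums carry no TMM scaling. Against TMM, sample totals shift the median of all genes in the chimera comparison by -0.09 in resting and -0.11 in activated Tconv cells (log2). The part of that shift in these gaps was not tested. In follicular helper (Tfh) cells the sum was 387 to 520 CPM in chimera WT and 426 to 485 CPM in chimera ΔFoxp3 cells, and the remaining clusters with both chimera groups overlapped too.

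The clusters hold different mixes of groups, with no 9-week WT sample among the 8 V3 samples of Tfh cells and ΔFoxp3 samples alone in the dividing cells of V3, so single genes were compared with the main resting cluster of the same sample. Idi1 was lower in Tfh cells in 8 of 8 V3 and 4 of 4 V2 samples, with V3 medians of 6.31 CPM in Tfh and 31.9 CPM in resting cells. Sqle was lower in Tfh cells in 7 of 8 V3 and 4 of 4 V2 samples, with V3 medians of 5.44 and 22.0 CPM. The 8 V3 samples held 27 to 101 Tfh cells with 140488 to 532536 UMIs over all genes. The Tfh levels of Idi1 and Sqle thus rest on few UMIs. Ebp was higher in tissue-like Tconv cells in 9 of 10 V3 and 4 of 4 V2 samples, with V3 medians of 112 CPM against 55.3 CPM in resting cells. Idi1 was lower in tissue-like Tconv cells in 4 of 4 V2 samples but in 6 of 10 V3 samples. Lbr was higher in dividing cells in 3 of 3 V3 and 4 of 4 V2 samples, with V2 medians of 215 and 112 CPM.

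**Figure D4:**
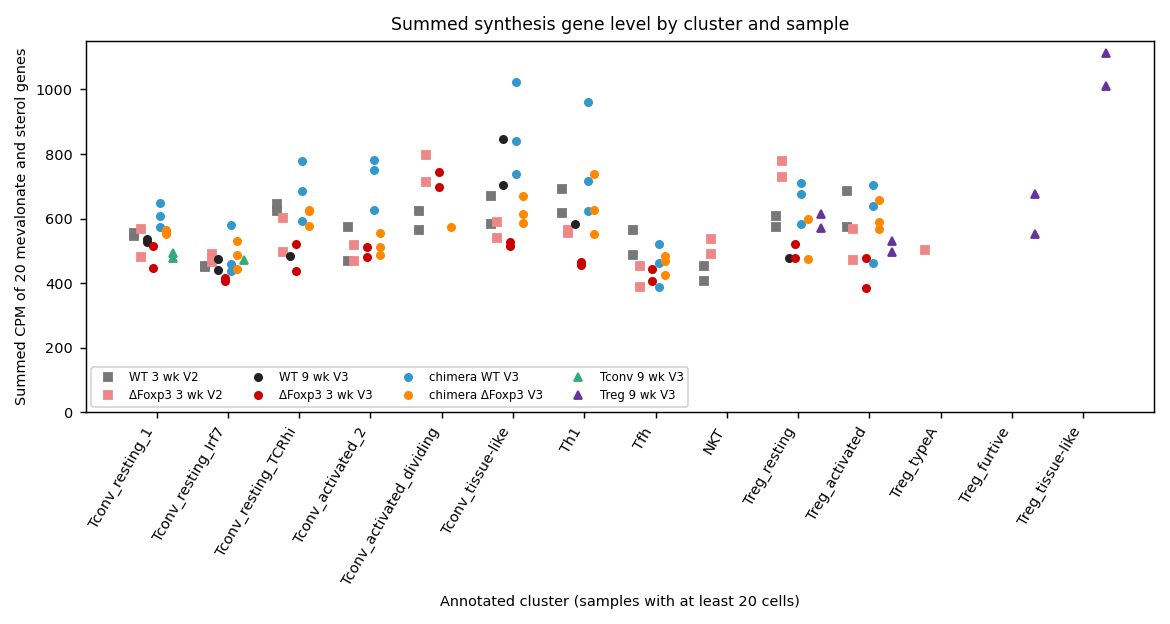
Summed CPM of the 20 mevalonate and sterol genes (y axis from 0) in each deposited cluster (x axis) with 1 point per sample of at least 20 cells, coloured by group. The tissue-like Treg cluster of the 2 sorted samples lies at 1010 and 1114 CPM, with 1 chimera WT sample of the tissue-like Tconv cluster between them. Chimera WT samples lie above chimera ΔFoxp3 samples in the Tconv_tissue-like, Tconv_activated_2 and Tconv_resting_1 clusters, in CPM without TMM scaling.

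Activated and resting Tconv cells of the same sample were set side by side in the same way. Ebp was higher in activated cells in 4 of 4 V2 and 12 of 12 V3 samples, with median log2 ratios of 0.60 and 0.86. Lbr was higher in 4 of 4 and 11 of 12, and Acly in 4 of 4 and 11 of 12. Idi1, Fdps, Cyp51 and Sqle were lower in activated cells in 4 of 4 V2 samples, Idi1 with a median log2 ratio of -1.18, but lower in 7, 7, 6 and 9 of 12 V3 samples. The mean log2 ratio of the 20-gene sum was 0.06 ± 0.12 (SD, n = 4) in V2 and 0.23 ± 0.18 (SD, n = 12) in V3 samples. Counted against totals without mitochondrial and ribosomal protein genes the means were -0.17 and -0.014, so the sum did not show a direction that held under both totals.

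Further genes around the pathway were read from lists chosen with earlier results of these data known, and their counts stand beside the shares of all genes tested, 22.1% rising and 20.9% falling in V3 and 14.4% and 9.61% in V2. Of 12 tested genes for sterol uptake, esterification and oxysterols, 1 rose and 4 fell in the V3 comparison and 0 rose and 4 fell in the V2 comparison. Lipa, the lysosomal acid lipase that frees cholesterol from its esters, fell by 1.75 on the log2 scale in V3 (edgeR adjusted p = 1.94e-07) and by 0.62 in V2 (edgeR adjusted p = 0.00615). Osbpl9, an oxysterol-binding protein, fell by 0.83 in V3 (edgeR adjusted p = 2.28e-06), and Gramd1a, a sterol transporter, fell by 0.72 in V2 (edgeR adjusted p = 0.00321).

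Of 7 tested LXR-related genes 1 rose and 1 fell in V3, and 2 rose and 1 fell in V2. Rxra, the partner receptor of LXR, rose by 1.11 in V3 (edgeR adjusted p = 0.0076) and 1.77 in V2 (edgeR adjusted p = 0.0306). Arl4c, a known LXR target, fell by 1.71 in V3 (edgeR adjusted p = 1.14e-07) and by 0.83 in V2 (edgeR adjusted p = 0.00468), against the direction of Abca1. Of 10 genes that process or degrade SREBP proteins, 1 rose and 1 fell in V3, and 1 rose in V2. Ufd1, which helps extract ubiquitinated membrane proteins for degradation, rose by 0.61 and 0.36 (edgeR adjusted p = 6.00e-05 and 0.0435), and Mbtps1, the site-1 protease, fell by 0.47 in V3 (edgeR adjusted p = 0.0181).

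Of 16 genes that use isoprenoids 0 rose and 3 fell in V3, and edgeR called none of 16 in V2, with 1 at an unadjusted p under 0.05. Fntb, a farnesyltransferase subunit, fell by 1.34 in V3 (edgeR adjusted p = 7.96e-05), and Pdss2, needed for the ubiquinone side chain, fell by 0.72 (edgeR adjusted p = 0.00678). Of the other fatty acid genes 4 of 17 tested rose and 5 fell in V3, and 3 of 16 rose and 3 fell in V2. Elovl7, an elongase, fell by 2.56 in V3 and by 3.24 in V2 (edgeR adjusted p = 0.000167 and 0.0036). Acsl3, an acyl-CoA synthetase, fell by 2.32 in V3 (edgeR adjusted p = 0.000379), and Cpt1a, which admits fatty acids to mitochondria, rose by 1.34 in V2 (edgeR adjusted p = 0.0063). In the chimera comparison edgeR called none of the 62 tested genes of these 5 lists, with 6 at an unadjusted p under 0.05.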

How the data were processed

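Per the file headers and values, the authors deposited 1 matrix of UMI counts per gene and cell, already filtered for cells and doublets (0 doublet calls among 26652 cells), with a cell table whose sample, class and cluster labels were used. Cell Ranger 3.0.2 and build mm10 are named in the submitters' processing notes. The cell table also gives, per the file headers, the percent of UMIs on mitochondrial genes and counts of Foxp3, GFP and Cre. It states the V3 kit for all 26652 cells, whereas the labels state V2 for 4 samples, and the labels were followed. Another 46 columns of the cell table were not used.

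Counts were summed per sample over all cells, or per class where a sample had at least 20 cells. Genes were kept by filterByExpr (minimum count 10), scaled by TMM and tested with edgeR 4.0.16 (quasi-likelihood, Benjamini-Hochberg adjustment over all genes tested, threshold 0.05) in R 4.3.3, in 1 fit for the V2 and 1 for the V3 samples. The fit was tested on simulated data. Printed CPM are scaled by the sample's total UMIs, without TMM. Groups called separate are described by these CPM. If samples did not differ by group, 2 against 2 would separate with a probability of 0.333 and 3 against 3 with 0.1. The share of all genes with separate groups was not counted. DESeq2 1.42.0, other scalings, filters, the replicate block, cell removals and left-out replicates were alternatives. Removal of cells with 5 or more other-type UMIs, totals without TMM, the tube covariate and chimera 2 left out were chosen after seeing the data.

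The members and lists were chosen with earlier results of these data known. Genes named are, per comparison, the called members (the 4 of lowest p in a role), the member with most counts in a role without a call, and at most 2 genes per further list; other members are named to account for them, and the chimera and single-replicate examples were chosen after their values were seen. In the chimeras the replicate number marks the mouse, so the 3 pairs are paired by design; same-numbered deviations correlated at 0.0599, 0.0529 and 0.0215 across genes. Replicates of a group differed beyond sampling noise (chi-square per degree of freedom 2.09 to 11.8). Genes that overlap another gene (Fdps and Gm43738 on the same strand, Cyp51 and Akap9 on opposite strands, Hmgcs1 and Gm48342 on opposite strands) may share reads, and no strand setting is given in the sources used here.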

Additional observations from a re-analysis of the deposited data

Results flagged for a closer look

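The genotype difference of the intact V3 mice differed from that of the chimeras for 17 of the 33 genes, by edgeR's test of the difference between the effects. The comparison shares its samples with both, and age differs with genotype in the intact mice. On the log2 scale the intact effect minus the chimera effect was -1.53 for Fdps, -1.45 for Msmo1, -1.95 for Idi1 and -1.09 for Srebf2. It was -1.24 for Cyp51, -1.86 for Elovl6, -1.14 for Sqle and -1.12 for Insig1. It was -0.78 for Hmgcs1, -1.08 for Mvk, -1.41 for Tm7sf2 and -0.56 for Fasn. Upward differences were 1.34 for Scd2, 0.51 for Abcg1, 0.65 for Srebf1, 0.36 for Ebp and 1.44 for Abca1. Adjusted p ran from 6.33e-06 for Fdps to 0.0413 for Abca1, whose difference was 2.63 without WT replicate 1 of the intact mice. Fdps, Msmo1, Idi1, Scd2, Srebf2, Cyp51, Sqle and Insig1 stayed under the threshold in each alternative and with each single replicate left out; the other 9 missed it in at least 1.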

How the results depend on the processing

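None of the 76 gene results called in a comparison changed direction under the alternatives run: of 406 values with 1 replicate left out, 100 no longer passed, and of 567 others, 38. With 1 replicate left out, the number of the 33 genes called was 0 to 10 (V2), 14 to 18 (V3), 0 to 0 (chimera), 1 to 2 (sorted) and 11 to 16 (intact minus chimera). In activated cells it was 1 to 2 (V2), 0 to 2 (V3) and 0 to 2 (chimera), in resting cells 0 to 8, 14 to 15 and 0 to 0, and in Treg cells 0 to 4, 0 to 4 and 0 to 0. With no filter on low counts the counts became 9 in V2, 1 in the chimera, 2 in the sorted comparison, 2 in activated chimera cells, 8 in resting V2 cells and 1 in resting chimera cells. With the replicate block (paired by mouse in the chimera, by shared number elsewhere, which in the intact and sorted V3 groups is the droplet tube; the numbers correlated at 0.0771 in V2, 0.14 in V3 and 0.0983 in sorted cells) they were 7 in V2, 20 in V3, 1 in the chimera, 2 in the sorted comparison, 17 in the difference and 1 in resting chimera cells. Sample totals gave 1 in the chimera, 6 in the sorted comparison and 1 in resting chimera cells. The sorted count was 2 without dividing clusters, without cells of 5 or more other-type UMIs and with the tube as covariate, and 0 without cells of 2 or more such UMIs, where the difference gave 9. The tube covariate gave 1 in resting chimera cells. Leaving out chimera 2, after which genotype and tube coincide in the chimeras, gave 1 in activated chimera cells. The activated-over-resting log2 ratio of 0.06 (V2) and 0.23 (V3) became -0.17 and -0.014 with totals lacking mitochondrial and ribosomal protein genes. The cause was not tested. Treg classes of 29 to 66 cells in the intact V3 samples limit what those samples can show.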
